A study of Mus musculus with 4 samples.

Results

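The 49 genes described here encode proteins that copy DNA and divide the cell, and they were taken by symbol from the table of log2 FPKM values. FPKM is a read level per gene scaled for transcript length and library size. All 49 were found among the 28074 gene symbols of the table. They were split by known role into 25 G1/S and replication genes and 24 G2 and mitosis genes. RNA sequencing measured leukaemic spleen cells from 2 mice, numbered 4050 and 4182, to find the expression changes that follow resiquimod (R848). R848 is an imidazoquinoline that activates the RNA sensor TLR7. Cells of each mouse were cultured for 3 days with vehicle (control, n = 2) or with 10 µg/ml R848 (n = 2). The labels name the mice Dnmt3afl/fl, Flt3ITD/ITD, Mx1Cre in 1 place and Dnmt3a+/- in another, and the conflict was not resolved here. Both groups share this genotype and the growth medium, in which thawed cells had recovered for 24 hours and which held 20 ng/ml each of IL3 and IL6, 60 ng/ml of SCF and 20% serum. Mx1-Cre is a recombinase under an interferon-inducible promoter. The labels used here give neither the age of the mice nor a sort for leukaemic cells.

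A cell commits to division when the cyclins of G1, cyclin E among them, and their kinases release E2F factors from RB proteins. E2F factors then drive the genes for origin licensing, nucleotide supply and the replication machinery. Before mitosis a second wave follows, in which cyclin B and CDK1 start mitosis, Polo and Aurora kinases build the spindle, and the checkpoint kinases hold the anaphase-promoting complex until all chromosomes are attached. Genes of this second wave are known to be controlled through promoter elements called CHR, bound by the DREAM and MuvB complexes, and through CCAAT boxes, bound by NF-Y. SCF and IL3, both in the medium, are known to drive division of myeloid progenitors.

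The 2 classes held these elements in different shares of their promoters. The sequences were not used to choose the genes. The classes were split by known role, and the elements are known from genes of these roles. The shares are therefore a description, not an independent result, and do not depend on R848. RefSeq windows on GRCm38.p6, each 300 bases from 250 before to 50 after a start site, were at hand for 40 of the 49 genes, with more than 1 window for 3 of them. The other 9 genes are Aurkb, Ccna2, Ccne2, Cdc25c, Gins1, Gins2, Kif20a, Mcm4 and Tpx2. Windows were searched on both strands for an E2F core (TTCCCGC or TTGGCGC), a CHR (TTTGAA or TTCGAA) and a CCAAT box (CCAAT). A gene was counted when any window held the motif. The 3 genes with more than 1 window, Mcm7, Fen1 and Lig1, are all G1/S genes, so this rule could raise only that class. Lig1 counted for the E2F core only by its window 3, and Mcm7 and Fen1 for the CHR only by window 1. The E2F core was present in 12 of 21 G1/S genes (57.1%, Wilson 95% interval 36.5 to 75.5) and in 3 of 19 G2 and mitosis genes (15.8%, 5.52 to 37.6). Among all 27025 genes of the promoter table the share was 7.79%. The CHR showed the reverse order, with 5 of 21 G1/S genes (23.8%, 10.6 to 45.1) and 15 of 19 G2 and mitosis genes (78.9%, 56.7 to 91.5), against 21.7% of all genes. A CCAAT box was found in 13 of 21 G1/S genes and in 16 of 19 G2 and mitosis genes (61.9% and 84.2%), against 41.1% of all genes. CHR and CCAAT box stood together in 14 of the 19 G2 and mitosis genes and in 9.65% of all genes. In the member windows 3 E2F core matches shared bases with a CCAAT box. The CHR matches of the G2 and mitosis genes had a median position of -15 relative to the start site, and the E2F cores of the G1/S genes of -30.5, where positions are those of the first base of a match and negative ones lie before the start. A match is a description of the letters and does not show that a factor binds there. The windows of a pair of helicase genes and of 4 mitotic genes are printed below 5′ to 3′ on the strand of the gene, because they show the elements that set the classes apart. Capitals mark the E2F core or its reverse complement in Mcm5 and Mcm6, the CHR in Ccnb2, Plk1 and Cenpf, and both elements in Mki67. The windows are Mcm5 at chr8:75109259-75109558 (plus strand), Mcm6 at chr1:128359656-128359955 (minus), Ccnb2 at chr9:70421505-70421804 (minus), Plk1 at chr7:122159185-122159484 (plus), Mki67 at chr7:135716330-135716629 (minus) and Cenpf at chr1:189688037-189688336 (minus).
Mcm5: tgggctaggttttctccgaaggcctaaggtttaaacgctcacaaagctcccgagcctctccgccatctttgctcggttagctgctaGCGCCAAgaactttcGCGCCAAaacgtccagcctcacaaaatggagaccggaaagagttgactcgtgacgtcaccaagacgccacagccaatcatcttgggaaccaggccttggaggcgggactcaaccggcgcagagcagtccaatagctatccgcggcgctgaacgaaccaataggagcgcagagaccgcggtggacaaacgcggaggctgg
Mcm6: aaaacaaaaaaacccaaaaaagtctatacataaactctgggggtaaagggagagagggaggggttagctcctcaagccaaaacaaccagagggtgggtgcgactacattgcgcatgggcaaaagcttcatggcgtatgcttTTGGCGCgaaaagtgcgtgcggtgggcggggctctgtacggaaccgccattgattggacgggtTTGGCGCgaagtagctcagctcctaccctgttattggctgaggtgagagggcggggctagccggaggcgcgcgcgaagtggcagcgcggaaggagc
Ccnb2: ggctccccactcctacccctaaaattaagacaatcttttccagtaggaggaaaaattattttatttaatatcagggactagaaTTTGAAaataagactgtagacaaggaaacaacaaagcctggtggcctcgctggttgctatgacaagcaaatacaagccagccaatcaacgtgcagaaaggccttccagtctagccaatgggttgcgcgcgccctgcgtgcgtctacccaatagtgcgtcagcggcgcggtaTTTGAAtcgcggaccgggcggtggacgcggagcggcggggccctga
Plk1: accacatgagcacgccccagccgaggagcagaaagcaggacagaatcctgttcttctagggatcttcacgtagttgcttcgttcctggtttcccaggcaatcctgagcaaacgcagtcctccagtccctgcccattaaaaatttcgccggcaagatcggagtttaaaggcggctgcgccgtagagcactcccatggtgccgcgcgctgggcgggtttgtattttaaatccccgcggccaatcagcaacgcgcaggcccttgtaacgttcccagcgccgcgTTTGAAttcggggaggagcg
Mki67: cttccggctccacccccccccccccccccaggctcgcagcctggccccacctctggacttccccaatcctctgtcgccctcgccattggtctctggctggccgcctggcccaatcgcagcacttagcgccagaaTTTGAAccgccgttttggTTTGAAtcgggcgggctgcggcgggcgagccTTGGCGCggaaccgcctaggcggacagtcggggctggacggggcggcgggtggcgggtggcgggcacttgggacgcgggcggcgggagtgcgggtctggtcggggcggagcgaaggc
Cenpf: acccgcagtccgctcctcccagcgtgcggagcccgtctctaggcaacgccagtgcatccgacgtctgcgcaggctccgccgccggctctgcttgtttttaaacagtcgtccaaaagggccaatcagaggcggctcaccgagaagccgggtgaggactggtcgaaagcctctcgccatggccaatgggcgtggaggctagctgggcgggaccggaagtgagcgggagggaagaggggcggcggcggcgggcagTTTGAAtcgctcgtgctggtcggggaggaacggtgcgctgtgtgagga

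**Figure D1:**
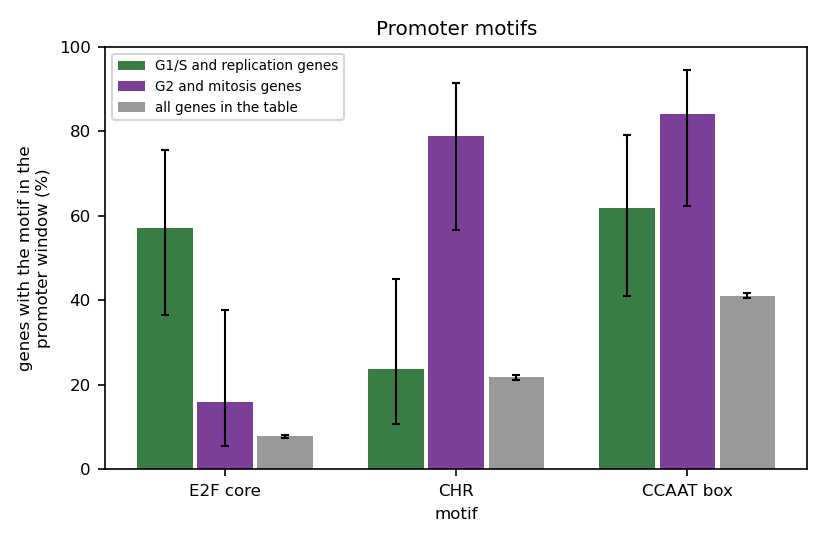
Share of genes with each motif in the promoter window (percent, y axis) for the 21 G1/S and 19 G2 and mitosis genes with a window and for all 27025 genes of the table; error bars are Wilson 95% intervals. The E2F core is at 57.1% in the G1/S genes and the CHR at 78.9% in the G2 and mitosis genes.

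In Mcm5 and Mcm6, subunits of the replicative helicase, the window held 2 E2F cores each, at positions -164 and -149 in Mcm5 and -109 and -46 in Mcm6. Neither window held a CHR. Ccnb2, a cyclin B, held a CHR at position 5 and another at -167, with 3 CCAAT boxes between them. Plk1, the Polo kinase, and Cenpf, a kinetochore protein, held 1 CHR each, at positions 31 and 3. Mki67, the gene of the proliferation antigen Ki-67, held 2 CHRs, at positions -116 and -98, and an E2F core at -67.

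Linear values summed to between 950530 and 962001 per sample, and the number of reads behind each value is not known. Of 12612 genes tested, 185 were higher and 48 lower with R848. Markers of myeloid progenitors and granulocytes were high in every sample, with summed levels over 10 genes of 7770 and 8360 FPKM in control and 9110 and 9040 with R848 (mice 4050 and 4182). The proteases Ctsg and Prtn3 and the peroxidase Mpo were the most abundant. The other marker lists were lower. Over 8 monocyte and macrophage markers the sums were 614 and 599 FPKM in control and 880 and 1390 with R848 (mice 4050 and 4182). Over 12 B and plasma cell markers they were 554 and 709 FPKM in control and 732 and 669 with R848, mostly from Xbp1, which many cells express. Over 6 megakaryocyte markers the sums were 101 and 86.5 FPKM in control and 451 and 214 with R848, mostly from the platelet chemokine Pf4. The 9 T cell markers summed to 8.98 and 8.72 FPKM in control and to 15.3 and 19.5 with R848, and the 7 NK cell markers to 4.60 and 5.35 in control and to 7.18 and 8.01 with R848. For the 9 erythroid markers, mostly from Tfrc, the sums were 225 and 164 FPKM in control and 280 and 215 with R848. The myeloid progenitor, monocyte, megakaryocyte, T cell and NK cell sums were thus higher in both R848 samples than in both controls, and the B cell and erythroid sums overlapped. No marker listed was at 0 in all 4 samples. Whether other cell types contribute to the replication and mitosis genes was not tested.

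None of the 49 genes passed the test with R848. By limma on log2(FPKM + 1) at an adjusted p under 0.05, 0 members were higher and 0 lower, where 1.47% of all tested genes were higher and 0.381% lower. All 49 members were above the filter of 1 FPKM, with means over the 4 samples from 8.77 FPKM (E2f1) to 568 FPKM (Top2a) and a median of 77.9 FPKM. At an unadjusted p under 0.05 limma counted 0 members, where the share of all tested genes was 11.5%. With the mouse as a block limma again called 0 members, against 3.40% of all genes higher and 1.90% lower. In that fit 4 members, Tyms, Fen1, Ccne1 and Ccne2, had an unadjusted p under 0.05, where 15.4% of all tested genes did. Their 95% intervals with the block lay above 0, with lower bounds of 0.04, 0.05, 0.05 and 0.17. The smallest adjusted p was 0.463, and 0.0966 with the block, both for Ccne2. Without the block the limma 95% intervals of the differences lay within 1 log2 unit of 0 for 46 of the 49 members. The other 3, Fen1, Ccne1 and Ccne2, had upper bounds of 1.03, 1.08 and 1.04. The median distance from the difference to its bounds was 0.41, so differences of that size were not resolved. In bulk RNA, fewer dividing cells and less RNA per cell cannot be told apart.

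**Figure D2:**
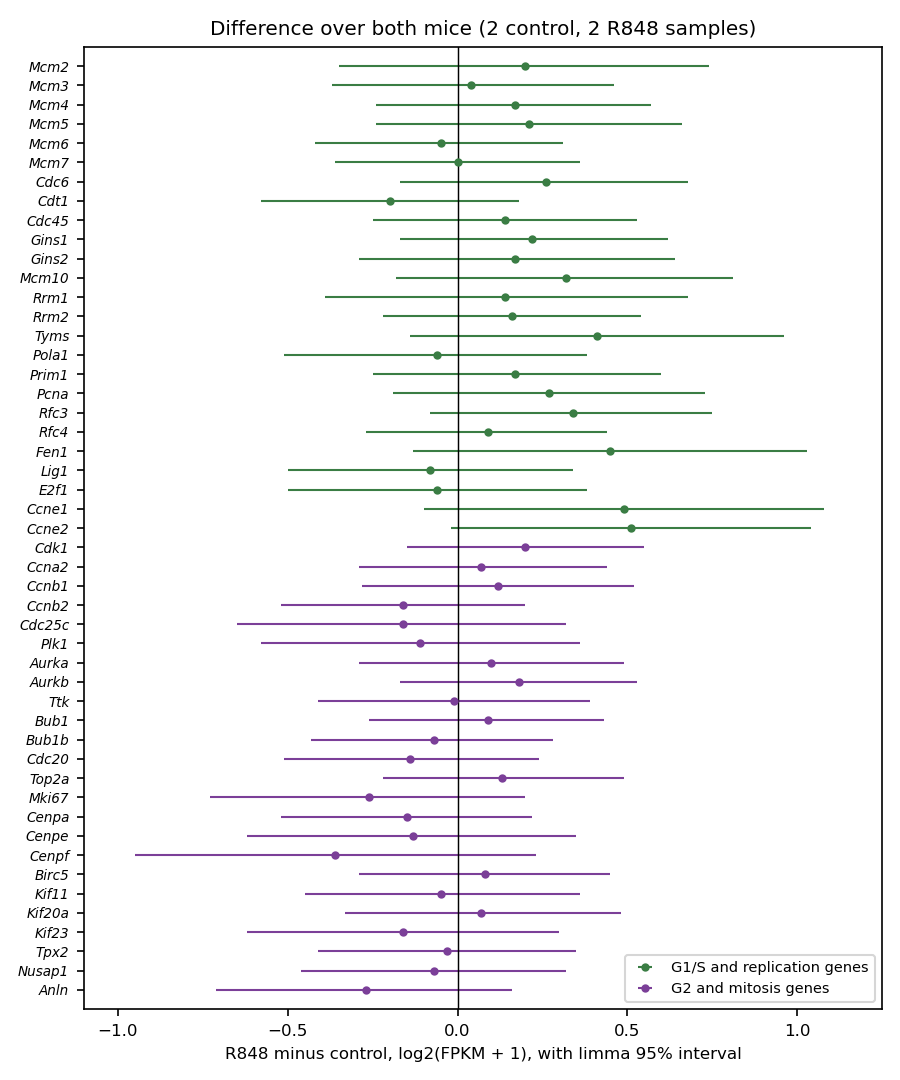
R848 minus control difference in log2(FPKM + 1) (x axis) for each of the 49 genes (y axis), with limma 95% intervals from 2 control and 2 R848 samples. The fit shown does not use the mouse as a block. Every interval of this fit includes 0, and Ccne2 at 0.51 has the highest value.

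Over both mice the G1/S genes had a median log2 difference of 0.17 and the G2 and mitosis genes of -0.06, where the median of all tested genes was -0.08. The values of the 2 mice were unlike. In mouse 4050 the medians were 0.06 for the G1/S genes and 0.10 for the G2 and mitosis genes, against 0.00 for all genes. In mouse 4182 they were 0.26 and -0.18, against -0.16 for all genes. Relative to all genes the medians in mouse 4182 were thus 0.42 and -0.02. In mouse 4182, 21 of 25 G1/S genes were higher with R848 and 8 of 24 G2 and mitosis genes were, where 32.6% of all tested genes were higher. In mouse 4050 the counts were 17 of 25 and 18 of 24, against 50.6% of all genes. Each mouse gives 1 control and 1 R848 sample, so a difference between the mice in their response could not be tested.

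For the G1/S genes the sample that stood apart was the control of mouse 4182. The mean log2 level of the 25 G1/S genes was 6.15 in the control of mouse 4050, 5.79 in the control of mouse 4182, and 6.21 and 6.07 with R848 (4050 and 4182). That of the 24 G2 and mitosis genes was 6.39, 6.42, 6.47 and 6.24 in the same order. The first value minus the second, which a common scale factor hardly moves, was -0.24 and -0.62 in control and -0.26 and -0.17 with R848. Of the 4 samples the control of mouse 4182 had the lowest value, and the other 3 lay close together. This sample held the lowest value for 21 of the 25 G1/S genes and for 7 of the 24 G2 and mitosis genes, where it was lowest for 23.3% of all tested genes. The R848 sample of the same mouse was lowest for 3 and 15 of them, where it was lowest for 48.7% of all tested genes. The 2 controls lay further apart than R848 from control for 20 of the 25 G1/S genes and 13 of the 24 G2 and mitosis genes, against 53.5% of all tested genes. Without the control of mouse 4182 the median difference of the G1/S genes was 0.02, and the gap between the medians of both classes was 0.06 in place of 0.23. Without the control of mouse 4050 they were 0.34 and 0.38.

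**Figure D3:**
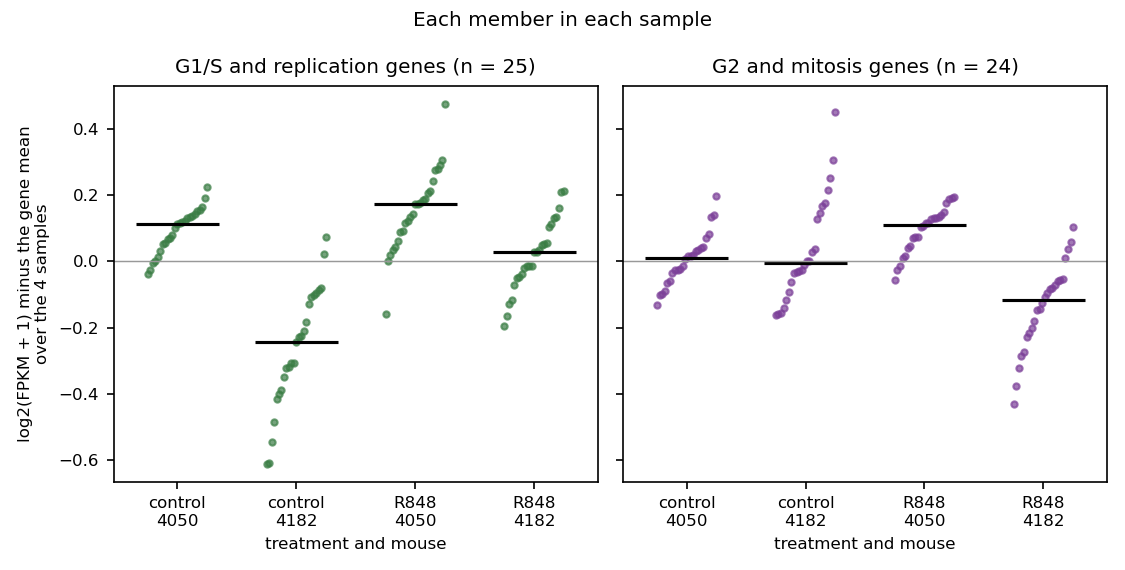
Each gene's log2(FPKM + 1) minus its mean over the 4 samples (y axis) in each sample (x axis); points are genes, black lines are medians over 25 G1/S genes (left) and 24 G2 and mitosis genes (right). The G1/S genes sit lowest in the control of mouse 4182. The G2 and mitosis genes sit lowest in the R848 sample of that mouse, which was also lowest for 48.7% of all tested genes. The median log2 level of all tested genes was 3.94 in that R848 sample and 4.09 to 4.11 in the other samples.

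The R848 and control groups overlapped for most members. Both R848 samples lay above both controls for 12 of 49 genes, 8 of them G1/S genes, where 13.5% of all tested genes did. Both lay below for 4 of 49, Cdt1, Ccnb2, Cenpa and Anln, where 28.8% of all tested genes did. The difference was above 0 in both mice for 16 of 25 G1/S genes and 8 of 24 G2 and mitosis genes, against 22.1% of all genes. It was below 0 in both mice for 3 and 6 of them, against 38.8% of all genes.

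The 6 subunits of the MCM2-7 helicase, which unwinds DNA at the fork, had log2 differences from -0.05 to 0.21. In mouse 4182 all 6 were above 0 (0.03 to 0.41), and in mouse 4050 only Mcm4 and Mcm5 were. Mcm2 (GRCm38 chromosome 6, 88883474 to 88898780) was at 96.5 and 61.5 FPKM in control and at 95.5 and 81.9 FPKM with R848 (mice 4050 and 4182). Its control value in mouse 4182 was the lowest of the 4, and the groups overlapped. The difference was 0.20 (SE 0.23, limma adjusted p = 0.817). Mcm5 (chromosome 8, 75109569 to 75128439) was at 115 and 84.4 FPKM in control and at 120 and 108 with R848, with the same order of samples apart from a higher R848 value in mouse 4050. Mcm6, the most abundant of the 6, was at 240 and 207 FPKM in control and at 218 and 211 with R848, so the R848 values lay between the controls.

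Genes of origin licensing and firing had differences from -0.20 to 0.32. Cdt1, which loads the helicase and is destroyed once replication starts, had the lowest of the 25 G1/S genes. It was at 31.5 and 30.4 FPKM in control and at 25.8 and 28.0 with R848, a difference of -0.20 (SE 0.16, limma adjusted p = 0.726), and the groups did not overlap. The other 5 genes of the group had positive differences. Cdc6, the partner of Cdt1 in loading, was at 0.26, and Mcm10, which helps to start the fork, at 0.32. Cdc45, Gins1 and Gins2, the helicase's activators, were at 0.14, 0.22 and 0.17. In mouse 4050 Gins2 was at -0.02, and the other 4 were between 0.02 and 0.21.

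Rrm1, Rrm2 and Tyms, which make deoxynucleotides, were higher with R848 in both mice. Tyms, thymidylate synthase, was at 82.3 and 50.9 FPKM in control and at 90.5 and 82.5 with R848. The R848 value of mouse 4182 lay just above the control of mouse 4050, so the groups barely failed to overlap, and the low sample was the control of mouse 4182. The difference of 0.41 (SE 0.24, limma adjusted p = 0.583) was 0.14 in mouse 4050 and 0.69 in mouse 4182, and it was 0.07 without the control of mouse 4182 and 0.75 without that of mouse 4050. Rrm2, the regulated subunit of ribonucleotide reductase, was at 209 and 196 FPKM in control and at 248 and 207 with R848. Its groups overlapped, and its larger difference was in mouse 4050 (0.25 against 0.08).

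Among the polymerase, clamp and ligase genes, Fen1 stood highest and Lig1 lowest. Fen1, the nuclease that trims Okazaki fragments (chromosome 19, 10199132 to 10204169), was at 106 and 62.1 FPKM in control and at 113 and 110 with R848. The groups did not overlap, and all values but the control of mouse 4182 lay close together. Its difference of 0.45 (SE 0.25, limma adjusted p = 0.568) came to 0.07 without that control and to 0.83 without the control of mouse 4050 (limma adjusted p = 0.0879). Pcna, the sliding clamp and the most abundant G1/S gene, was at 378 and 266 FPKM in control and at 392 and 373 with R848, a difference of 0.05 in mouse 4050 and 0.49 in mouse 4182. Again 3 samples lay close together above the control of mouse 4182, and the groups overlapped. Rfc3 and Rfc4, of the clamp loader, had differences of 0.34 and 0.09, and Prim1, the primase, of 0.17. Pola1, the catalytic subunit of polymerase alpha, was at 47.7 and 39.7 FPKM in control and at 46.7 and 37.0 with R848. Lig1, which seals Okazaki fragments, was at 48.8 and 39.6 FPKM in control and at 44.1 and 39.1 with R848. Both had differences below 0 in each mouse, -0.03 and -0.10 for Pola1 and -0.14 and -0.02 for Lig1, and their groups overlapped.

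The cyclin E genes had the 2 highest differences of the 49 genes. Ccne2 (chromosome 4, 11191351 to 11204779) was at 50.7 and 36.4 FPKM in control and at 72.2 and 52.8 with R848. It was higher in both mice by nearly the same amount, 0.50 and 0.52, and the lower R848 value lay just above the higher control. Over both mice the difference was 0.51 (SE 0.23, 95% interval -0.02 to 1.04), with limma adjusted p = 0.463. With the mouse as a block the interval was 0.17 to 0.85 and the limma adjusted p 0.0966. Ccne1 (chromosome 7, 38097984 to 38107534) was at 24.6 and 14.4 FPKM in control and at 27.6 and 26.4 with R848. As with Fen1, 3 samples were alike and the control of mouse 4182 was low. Its difference of 0.49 (SE 0.25, limma adjusted p = 0.536) was 0.16 in mouse 4050 and 0.83 in mouse 4182, and it was 0.13 without that control and 0.86 without the control of mouse 4050. For Ccne2 the same values were 0.28 and 0.74. E2f1, an activating E2F factor, was the least abundant member, at 9.01 and 8.91 FPKM in control and at 9.18 and 7.97 with R848.

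**Figure D4:**
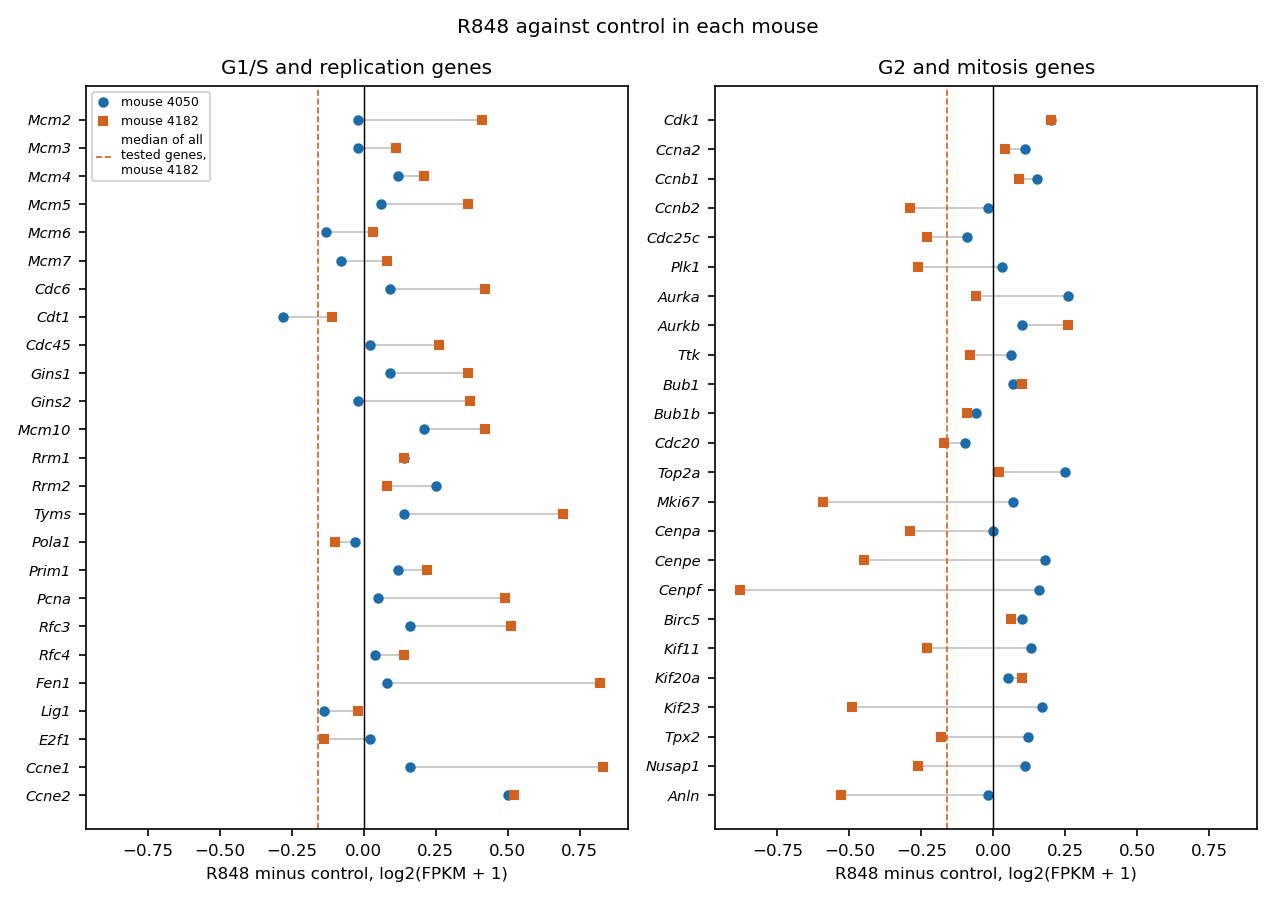
R848 minus control difference in log2(FPKM + 1) (x axis) for each gene (y axis) in mouse 4050 (circles) and mouse 4182 (squares); the dashed line is the median of all tested genes in mouse 4182, -0.16. Ccne1 and Fen1 reach 0.83 and 0.82 and Cenpf reaches -0.88 in mouse 4182, and in mouse 4050 these genes are between 0.08 and 0.16.

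The genes of mitotic entry had small differences, from -0.16 to 0.20. Cdk1, the mitotic kinase, had the highest of the 24 G2 and mitosis genes. It was at 342 and 322 FPKM in control and at 392 and 370 with R848, 0.20 in each mouse (limma adjusted p = 0.693), and the groups did not overlap. Ccnb1, its cyclin, was at 175 and 152 FPKM in control and at 194 and 162 with R848, with overlapping groups. Ccnb2, the other cyclin B, had the opposite sign, with 139 and 152 FPKM in control and 137 and 124 with R848. Ccna2, cyclin A, was at 0.07. Cdc25c, the phosphatase that activates CDK1, was at -0.16.

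The mitotic kinases ranged from -0.11 for Plk1 to 0.18 for Aurkb. Aurkb, the kinase of the chromosomal passenger complex, was at 98.4 and 90.1 FPKM in control and at 106 and 108 with R848, and the groups did not overlap. Its difference of 0.18 had an SE of 0.15 and a limma adjusted p of 0.729. Plk1 was at 37.9 and 33.8 FPKM in control and at 38.8 and 28.1 with R848, so the highest and the lowest value were both R848 samples. Aurka, which matures the spindle poles, was at 0.26 in mouse 4050 and -0.06 in mouse 4182. The checkpoint kinases Bub1, Bub1b and Ttk were at 0.09, -0.07 and -0.01.

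Genes of mitotic chromosomes and of the centromere held the lowest difference of the 49, that of Cenpf, and mouse 4182 gave its sign. Cenpf (chromosome 1, 189640606 to 189688086) was at 26.9 and 39.6 FPKM in control and at 30.1 and 21.1 with R848. Mouse 4182 held both the highest and the lowest value. The difference of -0.36 (SE 0.25, limma adjusted p = 0.664) was 0.16 in mouse 4050 and -0.88 in mouse 4182. Mki67 (chromosome 7, 135689784 to 135716361) was at 154 and 172 FPKM in control and at 161 and 114 with R848, 0.07 in mouse 4050 and -0.59 in mouse 4182. Cenpe, a kinetochore motor, was at 0.18 and -0.45 in the same order. Cenpa, the centromeric histone, was at 122 and 140 FPKM in control and at 122 and 114 with R848. Birc5, survivin, of the passenger complex, was at 0.10 and 0.06. Top2a, the topoisomerase that untangles chromosomes and the most abundant member, was at 519 and 564 FPKM in control and at 620 and 570 with R848, and the difference was 0.13 (SE 0.15, limma adjusted p = 0.809). Cdc20, which activates the anaphase-promoting complex, was at -0.14.

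The spindle and cytokinesis genes showed the same division between the mice. Of 6 genes, 5 were above 0 in mouse 4050 and only Kif20a, a motor of the midzone, was in mouse 4182. Of all tested genes, 50.6% were above 0 in mouse 4050 and 32.6% in mouse 4182. The median of the 6 genes in mouse 4182 was -0.24, and -0.08 relative to all tested genes. Anln, anillin of the contractile ring, was at 37.2 and 47.6 FPKM in control and at 36.8 and 32.7 with R848. Both R848 values lay below both controls, that of mouse 4050 only just. Its difference was -0.27 (SE 0.18, limma adjusted p = 0.657). Kif23, another motor of the midzone, was at 0.17 in mouse 4050 and -0.49 in mouse 4182. Kif11, the motor that separates the poles, was at 0.13 and -0.23, Tpx2, a spindle assembly factor, at 0.12 and -0.18, and Nusap1, a microtubule binder, at 0.11 and -0.26.

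Transcript length moved with the values of mouse 4182. Lengths were those of the longest protein-coding transcript in GENCODE M21, found for 10773 tested genes and for all 49 members. In mouse 4182 the median difference of all tested genes went from -0.05 for transcripts of 1 to 2 kb to -0.34 for those over 8 kb, over 7 length ranges. In mouse 4050 the medians of the same ranges lay between -0.05 and 0.02. The 3 longest members, Cenpf (11130 bases), Mki67 (10061) and Cenpe (7910), were among the 5 lowest in mouse 4182. Less the median of genes of like length, Cenpf was at -0.54, Mki67 at -0.24 and Cenpe at -0.17. On that scale the medians in mouse 4182 were 0.38 for the G1/S genes and -0.01 for the G2 and mitosis genes. The part of length in the single values was not tested.

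**Figure D5:**
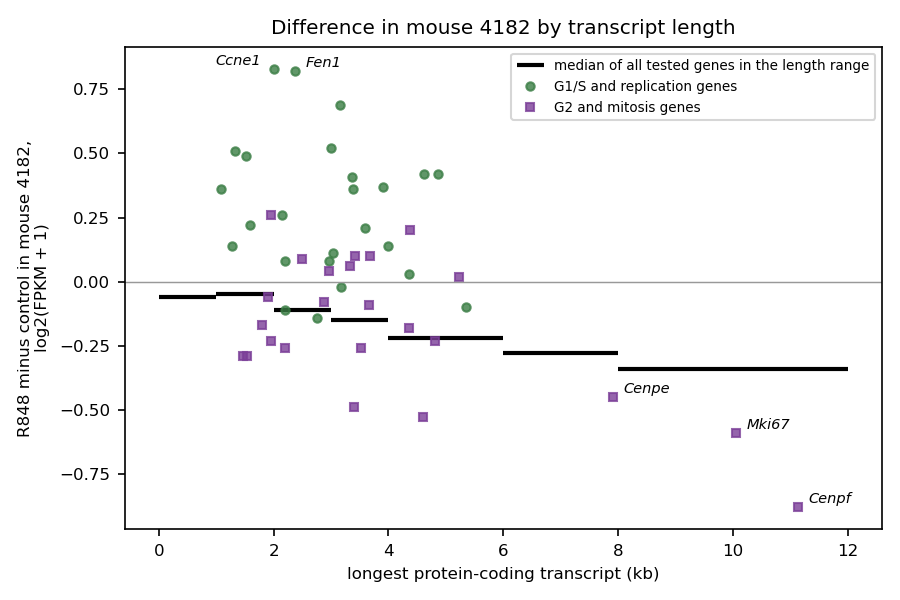
R848 minus control difference in mouse 4182, log2(FPKM + 1) (y axis), against the longest protein-coding transcript in kb (x axis); black bars are medians of all tested genes in each length range, the last one covering all transcripts over 8 kb, and points are the 25 G1/S and 24 G2 and mitosis genes. The bars go down to -0.34, and Cenpf at -0.88 lies below them while Ccne1 and Fen1 lie above.

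The other genes of the cell cycle, in 10 lists set by role, had no call either. Of 197 genes listed, 193 were tested, and by limma 0 were higher and 0 lower, with 4 at an unadjusted p under 0.05. Over all tested genes these shares were 1.47% higher, 0.381% lower and 11.5% at an unadjusted p under 0.05, so the lists held fewer such genes than the background. With the mouse as a block limma also called 0. The 4 genes were Orc1 of the origin recognition complex (0.59, limma adjusted p = 0.370), Shmt2 of mitochondrial folate metabolism (-0.45, adjusted p = 0.319), the CDK4 inhibitor Cdkn2b (-0.85, adjusted p = 0.198) and Anapc13 of the anaphase-promoting complex (-0.54, adjusted p = 0.226). All 4 had the same sign in both mice. Orc1 was at log2 values of 3.54 and 2.99 in control and of 3.88 and 3.83 with R848, and so was lowest in the control of mouse 4182, as were 21 of the 25 G1/S members.

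The origin, fork and nucleotide lists were also lower in the control of mouse 4182 than in that of mouse 4050, and the other lists were not or hardly so. The control of mouse 4182 minus that of mouse 4050 had a median of -0.32 over the 25 G1/S members. It was -0.21 over 18 origin partners, -0.29 over 24 polymerase and fork genes and -0.37 over 16 nucleotide synthesis genes. It was -0.01 over the 24 G2 and mitosis members, -0.07 over 23 kinetochore genes, 0.05 over 19 condensin and cohesin genes and 0.09 over 22 spindle motor and cytokinesis genes. It was -0.03 over 20 replication checkpoint and fork repair genes, -0.07 over 18 E2F, RB and DREAM regulators, 0.02 over 17 genes of the anaphase-promoting complex and 0.23 over 16 G1 cyclin, CDK and inhibitor genes. Over all tested genes it was 0.00. With R848 in mouse 4182, 2 of 19 condensin and cohesin genes and 2 of 22 spindle motor genes were above 0, where 32.6% of all tested genes were. In mouse 4050, 15 and 17 were, where 50.6% of all tested genes were. Medians with R848 in mouse 4182 were 0.09, 0.09 and 0.24 for the origin, fork and nucleotide lists and -0.26 and -0.28 for the condensin and spindle motor lists. The last 2 lay at -0.10 and -0.12 relative to all tested genes, and both at -0.08 relative to genes of like length. In mouse 4050 the same medians were 0.06, 0.01, -0.07, 0.13 and 0.11.

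For the genes with the smallest p of each list, values are given without a call. Orc2, a second origin subunit, was at 0.30, Rpa1, which coats single-stranded DNA, at 0.30, and Chaf1b, a chromatin assembly factor, at 0.33. Paics, of purine synthesis, was at -0.29. Ccnd2, a cyclin D, was at 0.39. Among E2F and DREAM regulators, Tfdp2 and Lin37 were at -0.46 and -0.41. Ncapd2, a condensin subunit, was at -0.34, and Pttg1, securin, at 0.52. Cenpk and Cenpm, of the inner kinetochore, were at 0.23 and 0.21. Racgap1 and Aspm, of cytokinesis and the spindle poles, were at -0.31 and -0.37, and Anapc7 at -0.35. Atr, the kinase of the replication checkpoint, was at -0.31, and Fanca, of crosslink repair, at 0.29. The limma adjusted p of these genes lay between 0.440 and 0.746.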

How the data were processed

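The authors deposited log2 values of FPKM, per the file headers and name, with 1 column for each of 4 samples. Per the submitters' processing notes kallisto and mm10 were used, and other steps are not given in the sources used here. Per the labels' protocols, RNA with an integrity number above 8.0 was sequenced as paired reads of 150 nucleotides, and both ribosomal depletion and a poly(A) mRNA kit are named, so the RNA captured is not settled. Linear values, 2 to the power of the value less 1, sum as TPM nearly would. Without counts no count model was used, and depth is unknown.

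Rows with date names (27) and 91 repeats were dropped. The 12612 genes whose mean reached 1 FPKM entered a two-sided limma test (version 3.58.1, R 4.3.3) of log2(FPKM + 1), with a trended prior and Benjamini-Hochberg adjustment over all of them, threshold 0.05. In simulated data it held its false discovery rate for spreads drawn from the fitted prior, but called false genes more often than the threshold for the spreads of the data, so its calls are liberal. A fold on this scale understates low genes. Same-numbered samples come from 1 mouse, per the labels, and their deviations correlated at 0.289 over genes. Members, lists and the naming rule (3 highest and 3 lowest differences and 3 highest levels per class, 10 fixed genes, and the 2 smallest p per list) were chosen with earlier results of these data known, and further members are named by role. Wilson intervals cover counting error only. Promoters and coordinates came from RefSeq and GENCODE M21 on GRCm38. Alternatives were another pseudocount, filters, scalings, the block, a constant prior, each sample left out and a shorter promoter window. Comparing with genes of like length was added after seeing the data. The values of 1 marker gene are not reported here.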

Additional observations from a re-analysis of the deposited data

How the results depend on the processing

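The p-values rest on 2 animals and on a spread pooled over genes. Among the 49 members 0 passed limma under each of the 11 alternatives, with 0 to 6 at an unadjusted p under 0.05, the 6 without the control of mouse 4050. Genes called numbered 233, and 669 with the mouse as a block (replicate block), 88 after quantile normalization, 109 after scaling by the median log ratio, and 0 with no filter other than rows at 0 throughout (limma, 1880 at an unadjusted p under 0.05). Leaving out each sample gave 56 (R848, mouse 4182) to 395 (control, mouse 4050), with 88 without R848 of mouse 4050. The median of the G1/S genes was 0.17 to 0.24 under the other settings and 0.02 to 0.34 with a sample left out, lowest without the control of mouse 4182 and highest without that of mouse 4050. That of the G2 and mitosis genes was -0.06, with -0.08 after quantile normalization, 0.01 after scaling by the median log ratio, 0.02 against genes of like length (an alternative chosen after seeing the data), and -0.14 to 0.10 with a sample left out. Scaling by the median log ratio moved the median of all genes in mouse 4182 from -0.16 to -0.02, and 9 uncalled members took the other sign. The block changed no member's call. In the last 150 bases of the promoter window the E2F core was in 5.26% of G2 and mitosis genes and the CHR in 9.52% of G1/S genes, where all genes were at 4.51% and 9.87%. The cause of these changes was not tested.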
